A study of Mus musculus with 30 samples.

Results

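The genes of the intermediate filaments of muscle were followed across the differentiation of cultured mouse muscle cells, and they comprise Des, Synm, Sync, Vim, Nes, Lmna, Lmnb1 and Plec. They are the filament proteins and the linker protein plectin that muscle cells are known for, listed by name with earlier results of these data known, and are 8 of 30205 genes with transcripts in the expression tables. The study sequenced RNA from cultures on gelatin hydrogels moulded with micrometre-wide grooves (patterned gelatin), on flat gelatin (unpatterned gelatin) and on plastic, to ask how the surface affects the maturation of myotubes. In all, 30 libraries were measured in 10 groups of 3. On the mm10 assembly the genes lie at chr1:75360329-75368579 (Des), chr7:67730160-67759742 (Synm), chr4:129287617-129308559 (Sync), chr2:13573927-13582826 (Vim), chr3:87971078-87980451 (Nes), chr3:88480147-88509956 (Lmna), chr18:56707813-56753424 (Lmnb1) and chr15:76170974-76232574 (Plec), with Synm, Lmna and Plec on the minus strand and the others on the plus strand.

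Intermediate filaments are ropes of coiled-coil proteins that give cells and nuclei mechanical strength. In the cytoplasm of a myoblast vimentin and nestin are prominent, and as cells fuse into myotubes desmin becomes the main filament protein, ringing the Z-discs and tying the myofibrils to one another, to the sarcolemma and to the nuclei. Synemin and syncoilin join desmin filaments and link them to the dystrophin-associated complex at the membrane, and plectin is a very large linker that fastens intermediate filaments to Z-discs, mitochondria, nuclei and adhesion sites through isoforms made from different first exons. Lamins A, C and B1 form the mesh under the inner nuclear membrane. Mutations of DES, PLEC and LMNA cause myopathies or muscular dystrophies in humans.

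Primary cells were myoblasts taken from hindlimb muscles of 3 C57/Bl6J mice of 8 weeks of age, per the study's methods, and were sequenced on day 0, and on day 4 and day 7 of differentiation on patterned gelatin. C2C12 cells, an established mouse myoblast line used up to passage 8, were sequenced on day 0 and on day 4 and day 7 on patterned gelatin, unpatterned gelatin and plastic. Day 0 libraries of both cell types are labelled as from plastic. The methods describe primary myoblasts kept on dishes coated with a gel of extracellular matrix before they were plated on gelatin. A day 4 library on gelatin thus differs from day 0 in substrate as well as in time. Primary cells were grown on patterned gelatin alone after day 0, the 2 cell types differ in mouse strain as well as in being primary or an established line, and these differences cannot be told apart. The study's methods describe a brief trypsin step that enriched day 4 and day 7 cultures for myotubes. The study describes the replicates of a condition as separate cultures, so p-values measure the spread between cultures. The labels do not tie a primary culture to a mouse or a C2C12 culture to a batch of the line, of which the study used more than 1.

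Libraries held 13.1 M to 59.4 M estimated counts, with a median of 27.3 M. Each library was compared with the other members of its group by the Pearson correlation of log2 values across genes. The 3 libraries of primary replicate 3 stood apart, with 0.941 to 0.953 against 0.962 to 0.974 for the other primary libraries. The C2C12 day 7 libraries on patterned gelatin came to 0.961 to 0.972, against 0.985 to 0.997 for all other C2C12 libraries. In primary replicate 3 the mature muscle creatine kinase gene Ckm reached 14.1 TPM on day 7, against 777 and 574 TPM in replicates 1 and 2, and results that rest on that replicate are given with and without it. Summed over 4 genes of dividing cells (Mki67, Top2a, Ccnb1 and Cdk1), C2C12 libraries held 52.8 to 125 TPM on days 4 and 7, against 866 to 1013 TPM on day 0. Primary libraries held 20.96 to 63.3 TPM on those days, against 217 to 301 TPM on day 0. The myotube list summed to 10487 to 14635 TPM in C2C12 libraries on days 4 and 7, against 524 to 741 TPM on day 0. In primary libraries it summed to 7002 to 16694 TPM on days 4 and 7, against 767 to 1699 TPM on day 0. The myoblast list (Pax7, Myf5 and Myod1) summed to 125 to 262 TPM in primary libraries on days 4 and 7, against 847 to 1006 TPM on day 0. In C2C12 libraries it summed to 170 to 239 TPM on days 4 and 7, against 236 to 261 TPM on day 0. Of 4 genes of pericytes and smooth muscle, Myh11 and Kcnj8 stayed at or under 0.180 TPM. That list summed to 0.671 to 9.97 TPM in primary libraries on days 4 and 7, against 23.4 to 59.0 TPM on day 0, where Rgs5 carried it. In C2C12 libraries it summed to 5.57 to 13.9 TPM. Of 4 immune genes only Cd68 reached a group mean of 1 TPM (list sums 1.19 to 4.88 TPM, Adgre1 listed at 0 in every library). Of 4 endothelial genes only Pecam1 did (sums 1.84 to 14.1 TPM, the highest in a C2C12 day 7 library on patterned gelatin). The fibroblast list (Pdgfra, Col1a1, Dcn, Thy1 and Lum) summed to 83.4 to 188 TPM in C2C12 day 4 and day 7 libraries and to 39.2 to 44.9 TPM on C2C12 day 0, and to at most 3.79 TPM in primary libraries. In each C2C12 group 3 of its 5 genes reached a mean of 1 TPM.

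Levels were compared between genes in TPM, a share of all transcripts of a library that corrects for transcript length. Vim was the most abundant of the 8 genes on day 0, with 3832, 3748 and 3972 TPM in primary and 4513, 4291 and 4677 TPM in C2C12 libraries. On days 4 and 7 the most abundant was Des, which ran from 1905 to 2455 TPM in primary libraries and from 1850 to 3503 TPM in C2C12 libraries. The muscle filament gene thus took the first place from the gene of the mesenchymal filament in both cell types. Lmna, Nes and Plec came next, at 167 to 1021 TPM, followed by Sync at 75.8 to 212 TPM. Lmnb1 ran from 3.43 to 102.4 TPM and Synm from 0.187 to 6.50 TPM. Synm was the least abundant in all groups but primary day 7, where Lmnb1 was lower in all 3 libraries, and rested on 24 to 772 counts in a library, whereas the libraries of every other member held at least 100 counts.

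**Figure D1:**
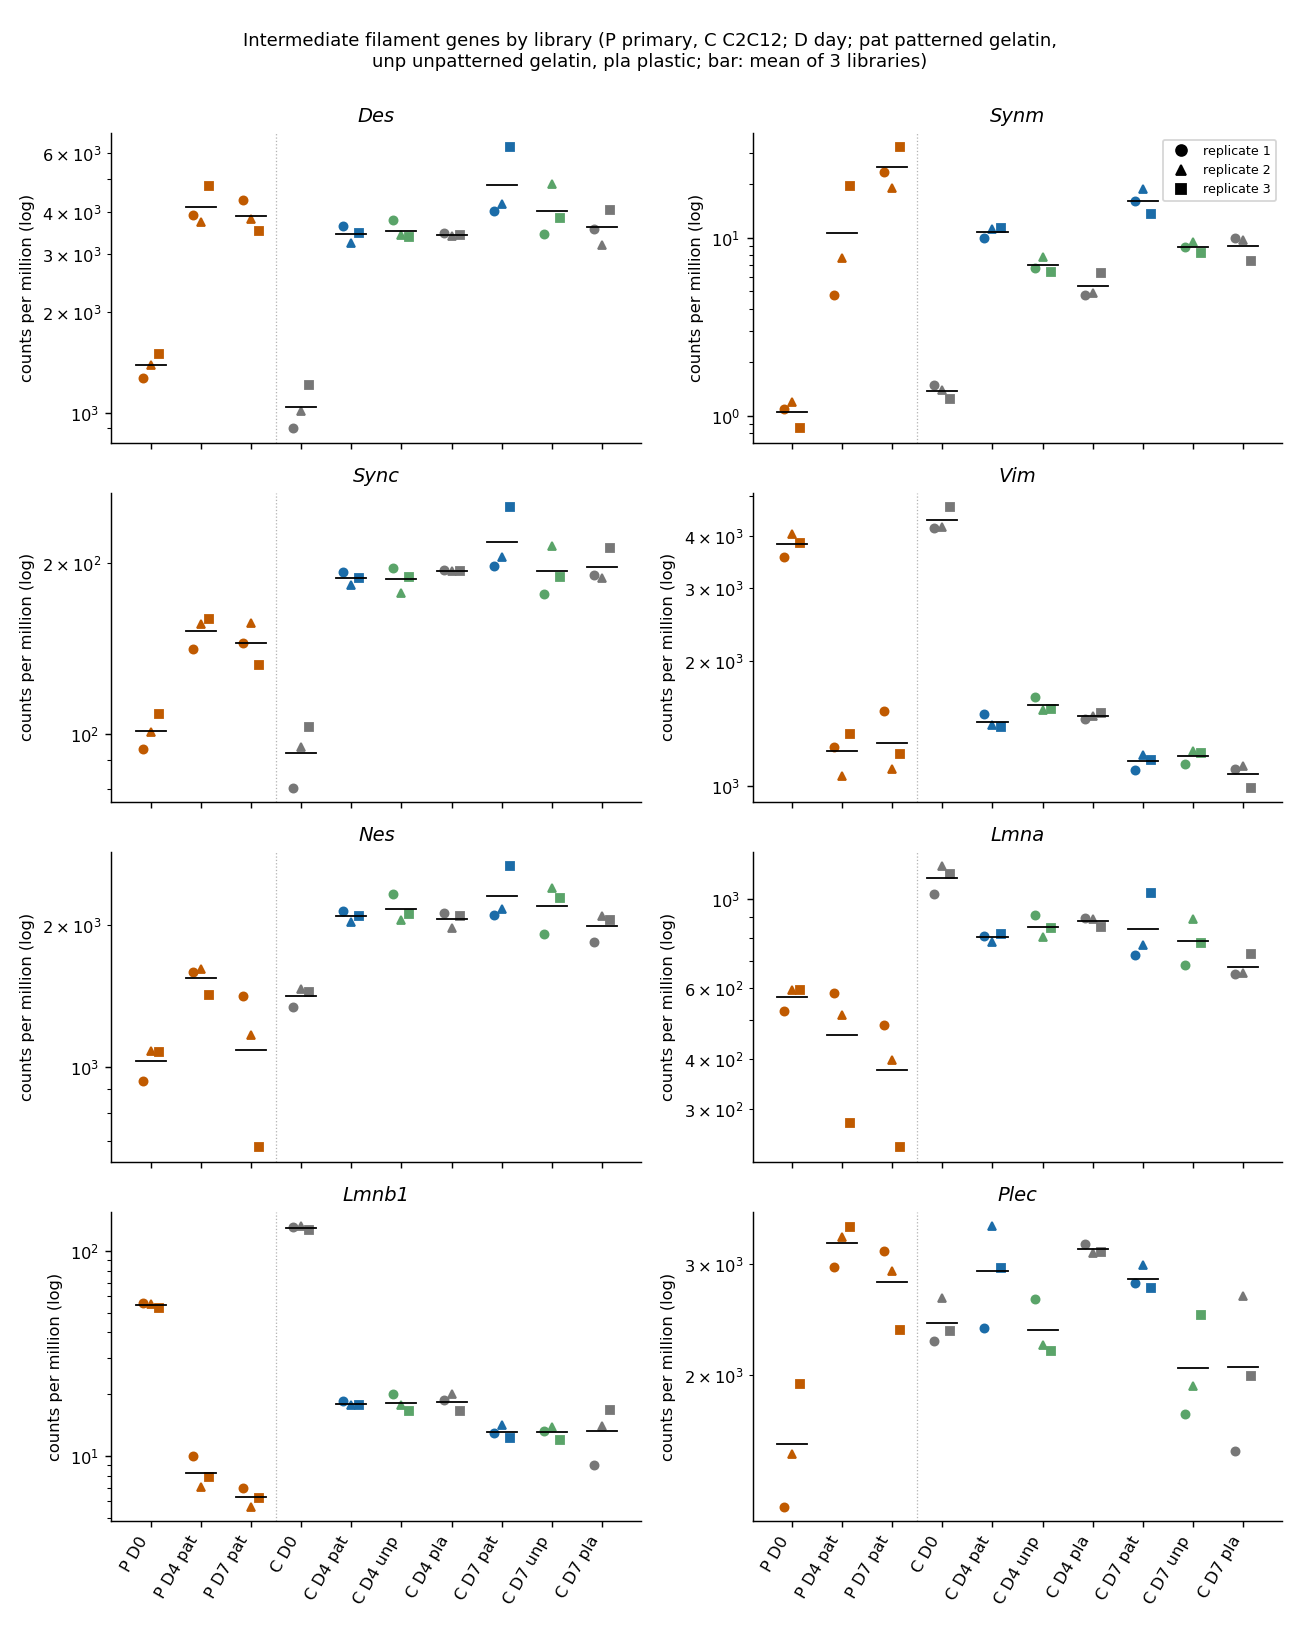
Expression of the 8 genes by library. Each panel shows 1 gene; the vertical axis is TMM-normalised CPM (counts scaled to library size) on a log scale and the horizontal axis the 10 groups (P primary, C C2C12, D day, pat patterned gelatin, unp unpatterned gelatin, pla plastic), with 1 point a library, shaped by replicate, and a bar for the mean of 3. Des and Synm are lowest and Vim and Lmnb1 highest on day 0 in both cell types, and Lmna lies lower in every primary group (374 to 570.5 CPM) than in every C2C12 group (677 to 1130 CPM).

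Differentiation was addressed by setting day 4 against day 0. All values that follow are CPM (counts scaled to library size) after TMM normalisation, in the order of replicates 1, 2 and 3, and all tests are edgeR's quasi-likelihood tests with Benjamini-Hochberg adjustment over every gene tested. Of the 8 genes, 4 rose and 2 fell in primary cells (20.2% of all genes were called higher and 22.4% lower, 42.6% in all), 4 rose and 3 fell in C2C12 cells on patterned gelatin (30.9% of all genes were called higher and 29.3% lower, 60.1% in all) and 5 rose and 3 fell on plastic (30.2% of all genes were called higher and 27.7% lower, 58% in all). The median log2 fold change of the 8 genes was 0.53, 0.43 and 0.48 in these comparisons, against -0.04, -0.02 and 0.00 over all genes. So large a share of all genes was called that the counts say little about the family as such. The C2C12 comparisons share their day 0 libraries. The lists of dividing cells and, in primary cells, of myoblasts and of pericytes summed to less on day 4, and that of fibroblasts summed to more in C2C12 cells, as given above. The myoblast list summed to less in C2C12 cells too. On day 4 it came to 179 to 234 TPM on patterned gelatin and 181 to 197 TPM on plastic, against 236 to 261 TPM on day 0. The part of these lists in the changes was not tested. In bulk RNA, fewer cells of a type and less RNA per cell cannot be told apart.

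Des and Vim moved in opposite directions. Des, the gene of desmin, had 3923, 3740.2 and 4782 CPM in primary day 4 libraries, against 1270.1, 1386 and 1503 CPM on day 0 (log2 fold change 1.53, SE 0.15, adjusted p = 0.000124). In C2C12 cells it had 3619, 3223 and 3445 CPM on day 4 on patterned gelatin, against 898, 1013 and 1215 CPM on day 0 (log2 fold change 1.74, SE 0.16, adjusted p = 1.95e-08). Every day 4 library lay far above every day 0 library, by about the same factor on plastic (log2 fold change 1.73). Vim, the gene of vimentin, had 1237, 1057 and 1334 CPM in primary day 4 libraries, against 3561, 4049 and 3844 CPM on day 0 (log2 fold change -1.71, SE 0.17, adjusted p = 0.000105). In C2C12 cells it had 1488, 1398 and 1387 CPM on day 4 on patterned gelatin, against 4179, 4204 and 4699 CPM on day 0 (log2 fold change -1.60, SE 0.08, adjusted p = 1.001e-12). No day 4 library reached the level of a day 0 library. The ratio of Des to Vim in TPM was 2.14 ± 0.238 in primary day 4 libraries and 0.230 ± 0.00640 on day 0, and 1.59 ± 0.0396 in C2C12 day 4 libraries on patterned gelatin and 0.152 ± 0.0188 on day 0 (SD, n = 3 each). On day 4 desmin mRNA therefore outnumbered vimentin mRNA in each of these libraries, where on day 0 it was the rarer of the pair.

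The 2 lamin genes did not move together. Lmnb1, whose product lamin B1 stays anchored to the membrane by its farnesyl group, had 9.95, 7.08 and 7.88 CPM in primary day 4 libraries, against 55.4, 55.0 and 52.9 CPM on day 0 (log2 fold change -2.76, SE 0.16, adjusted p = 1.58e-05). In C2C12 cells it had 18.5, 17.7 and 17.7 CPM on day 4 on patterned gelatin, against 131, 132 and 126 CPM on day 0 (log2 fold change -2.84, SE 0.15, adjusted p = 2.88e-12). This was the largest fall among the 8 genes in both cell types, and the genes of dividing cells fell in the same comparisons; the part of cell division in the fall of Lmnb1 was not tested. Lmna, which encodes lamins A and C, had 809.8, 779 and 817 CPM in C2C12 day 4 libraries on patterned gelatin, against 1031, 1205 and 1154 CPM on day 0 (log2 fold change -0.48, SE 0.12, adjusted p = 0.00182), and 896, 891 and 851 CPM on plastic (log2 fold change -0.34, SE 0.12, adjusted p = 0.0187). The C2C12 groups did not overlap, although the change was under a factor of 1.5. On plastic the call for Lmna was lost without day 0 replicate 2 (adjusted p = 0.0708) or without plastic replicate 3 (adjusted p = 0.0725). In primary cells Lmna had 581, 514 and 277 CPM on day 4, against 526, 593 and 593 CPM on day 0, with no call (log2 fold change -0.37, SE 0.31, adjusted p = 0.368); the low value on day 4 was replicate 3. The ratio of Lmna to Lmnb1 in TPM was 62.9 ± 26.7 in primary day 4 libraries and 11.4 ± 1.14 on day 0, and 49.8 ± 0.751 in C2C12 day 4 libraries on patterned gelatin and 9.65 ± 1.08 on day 0 (SD, n = 3 each).

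Of the proteins that join desmin filaments, Synm changed most. Synm, the gene of synemin, had 4.75, 7.68 and 19.5 CPM in primary day 4 libraries, against 1.09, 1.20 and 0.852 CPM on day 0 (log2 fold change 3.29, SE 0.52, adjusted p = 0.00126). In C2C12 cells it had 9.92, 11.2 and 11.4 CPM on day 4 on patterned gelatin and 4.78, 4.92 and 6.34 CPM on plastic, against 1.49, 1.40 and 1.24 CPM on day 0 (log2 fold changes 2.98 and 1.98). All day 4 libraries lay above all day 0 libraries, with the widest spread in primary cells, where replicate 3 was far above the others. Sync, the gene of syncoilin, had 141, 156 and 159 CPM in primary day 4 libraries, against 94.3, 100.6 and 108 CPM on day 0 (log2 fold change 0.54, SE 0.10, adjusted p = 0.00332). In C2C12 cells Sync had 192, 183 and 188 CPM on day 4 on patterned gelatin, against 80.4, 94.9 and 103 CPM on day 0 (log2 fold change 1.04, SE 0.10, adjusted p = 3.69e-08). The rise was smaller in primary than in C2C12 cells, with a difference of the 2 changes, primary minus C2C12, of -0.46, SE 0.15, adjusted p = 0.0276 (9.87% of all genes were called higher and 10.6% lower, 20.5% in all; of the members 1 was higher and 1 lower). That call was lost without any 1 of 5 of the 12 libraries, 2 of C2C12 day 0 (replicates 1 and 2), C2C12 day 4 replicate 3 and primary day 4 replicates 1 and 2, with adjusted p up to 0.112.

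Nes and Plec, abundant on day 0 already, were each called in 2 of the 3 comparisons. Nes, the gene of nestin, which needs vimentin or desmin to build filaments, had 1590.5, 1611 and 1424 CPM in primary day 4 libraries, against 937, 1084 and 1075 CPM on day 0 (log2 fold change 0.53, SE 0.24, adjusted p = 0.103). These groups did not overlap but the test across 9 libraries did not call them; without primary replicate 3 on all days the call was made (0.65, adjusted p = 0.00242). In C2C12 cells Nes had 2140.1, 2025 and 2089 CPM on day 4 on patterned gelatin, against 1343, 1461 and 1445 CPM on day 0 (log2 fold change 0.57, SE 0.10, adjusted p = 6.28e-05). All 3 day 4 libraries of the line were above all 3 of day 0. Plec, the gene of plectin, had 2968, 3317 and 3444 CPM in primary day 4 libraries, against 1230.4, 1493 and 1933 CPM on day 0 (log2 fold change 1.01, SE 0.19, adjusted p = 0.00277). In C2C12 cells Plec had 2374, 3453 and 2959 CPM on day 4 on patterned gelatin, against 2265, 2653 and 2346 CPM on day 0, and the groups overlapped (log2 fold change 0.29, SE 0.17, adjusted p = 0.153). Without day 4 replicate 1, the lowest of its group, Plec was called there (0.43, adjusted p = 0.0474). On plastic it had 3237, 3123 and 3143 CPM (log2 fold change 0.41, SE 0.17, adjusted p = 0.0497), a call that lay at the threshold and was lost without 5 of 6 single libraries, all but day 0 replicate 2 (adjusted p up to 0.150). The change was larger in primary than in C2C12 cells (difference 0.76, SE 0.26, adjusted p = 0.0424). That call was lost without 6 of the 12 libraries left out in turn (C2C12 day 0 replicate 2, C2C12 day 4 replicates 1 and 3, primary day 0 replicates 1 and 2 and primary day 4 replicate 3), with adjusted p up to 0.155. On plastic the other members were called as on patterned gelatin, with log2 fold changes of -1.55 for Vim, -2.80 for Lmnb1, 1.08 for Sync and 0.56 for Nes. For the 6 members other than Sync and Plec the difference of the changes, primary minus C2C12, ran from -0.16 (Des) to 0.34 (Synm), with no call.

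**Figure D2:**
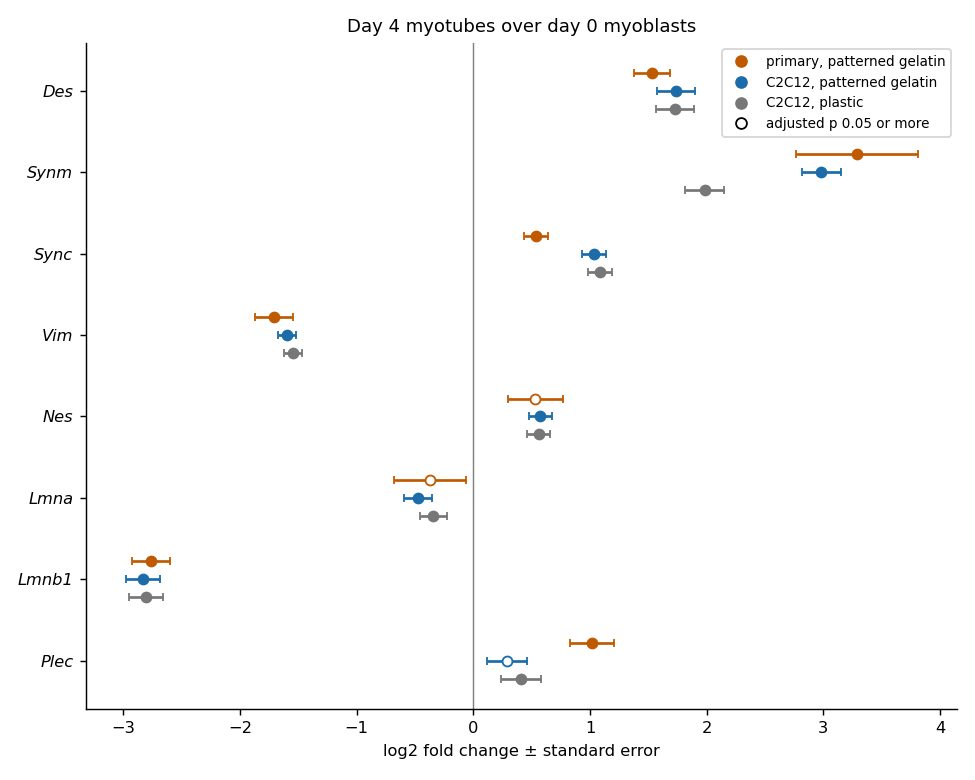
Change of the 8 genes between day 4 and day 0. Points are log2 fold changes from edgeR with their standard errors, in primary cells on patterned gelatin and in C2C12 cells on patterned gelatin and on plastic (n = 3 libraries a group), and open points have an adjusted p of 0.05 or more. Des, Synm and Sync lie above 0 and Vim and Lmnb1 below 0 in all 3 comparisons, while Plec stands at 1.01 in primary cells and at 0.29 and 0.41 in C2C12 cells.

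Fewer genes were called between day 7 and day 4. In primary cells none of the 8 genes was called, nor was any gene of the 14352 tested (0%); 666 genes had an unadjusted p under 0.05. Synm had 23.5, 19.1 and 32.2 CPM in primary day 7 libraries, against 4.75, 7.68 and 19.5 CPM on day 4 (log2 fold change 1.24, SE 0.47, adjusted p = 0.994), and the ranges overlapped because replicate 3 was high on day 4. Without primary replicate 3 on all days Synm was called (1.79, adjusted p = 0.0225), and was then the 1 member that was. The other 7 members ran from -0.50 (Nes) to 0.08 (Vim) on the log2 scale. In C2C12 cells 2 members rose and 1 fell on patterned gelatin (11.3% of all genes were called higher and 9.03% lower, 20.3% in all), 1 fell on unpatterned gelatin (1.62% of all genes were called higher and 1.31% lower, 2.92% in all) and 1 rose and 4 fell on plastic (6.47% of all genes were called higher and 8.37% lower, 14.8% in all). The change from day 4 to day 7 did not differ between primary and C2C12 cells beyond the threshold for any member, with differences from -0.70 (Nes) to 0.60 (Synm) (0.252% of all genes were called higher and 0.518% lower, 0.77% in all; 2519 genes had an unadjusted p under 0.05), but without primary replicate 3 on all days it did for Synm (1.16, adjusted p = 0.0139), as it did without day 4 replicate 3 alone (1.41, adjusted p = 0.0290).

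By the counts Vim went on falling in C2C12 cells on every substrate, whereas on the TPM scale no surface gave a call. It had 1091, 1186 and 1153 CPM on day 7 on patterned gelatin, against 1488, 1398 and 1387 CPM on day 4 (log2 fold change -0.28, SE 0.07, adjusted p = 0.0154). On unpatterned gelatin it had 1127, 1209 and 1197 CPM on day 7, against 1635, 1524 and 1529 CPM on day 4 (log2 fold change -0.40, SE 0.07, adjusted p = 0.00579). On plastic it had 1093, 1118 and 987 CPM on day 7, against 1447, 1475 and 1493 CPM on day 4 (log2 fold change -0.45, SE 0.07, adjusted p = 0.000656). The days did not overlap on any of the 3 surfaces; on patterned gelatin the call was lost without day 4 replicate 1 (adjusted p = 0.0503). With limma on log2(TPM + 1) Vim was at -0.28, adjusted p = 0.0971 on plastic and -0.27, adjusted p = 0.356 on unpatterned gelatin, and on patterned gelatin the direction turned round (0.15, adjusted p = 0.399). Synm went on rising, with 16.0, 18.7 and 13.6 CPM on day 7 on patterned gelatin, against 9.92, 11.2 and 11.4 CPM on day 4 (log2 fold change 0.61, SE 0.13, adjusted p = 0.00685). On plastic Synm had 9.93, 9.68 and 7.44 CPM on day 7, against 4.78, 4.92 and 6.34 CPM on day 4 (log2 fold change 0.74, SE 0.14, adjusted p = 0.00189). On unpatterned gelatin the days did not overlap either, with 8.90, 9.50 and 8.23 CPM on day 7, against 6.81, 7.78 and 6.46 CPM on day 4, but no call was made (log2 fold change 0.35, SE 0.14, adjusted p = 0.215).

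Other calls between these days rested on few libraries. Des had 4010.1, 4208 and 6240.2 CPM on day 7 on patterned gelatin, against 3619, 3223 and 3445 CPM on day 4 (log2 fold change 0.53, SE 0.16, adjusted p = 0.0274). Replicate 3 of day 7 was far above the rest, and without it the value was 0.27, adjusted p = 0.195; the call was also lost without any 1 of the 3 day 4 libraries (adjusted p up to 0.0937). On plastic Plec had 1512, 2669.8 and 1990.1 CPM on day 7, against 3237, 3123 and 3143 CPM on day 4 (log2 fold change -0.61, SE 0.17, adjusted p = 0.0227). The call was lost without any 1 of 5 of the 6 libraries, all but day 7 replicate 2, with adjusted p up to 0.117. Lmna on plastic had 650.4, 653 and 728 CPM on day 7, against 896, 891 and 851 CPM on day 4 (log2 fold change -0.37, SE 0.12, adjusted p = 0.0453), and each of the 6 libraries left out ended the call (adjusted p 0.0612 to 0.141). Sync on patterned gelatin was not called (log2 fold change 0.25, SE 0.10, adjusted p = 0.0861) but was without day 7 replicate 1 (0.32, adjusted p = 0.0347). For Lmnb1 on plastic the values were 9.07, 13.9 and 16.8 CPM on day 7, against 18.7, 20.1 and 16.5 CPM on day 4 (log2 fold change -0.45, SE 0.14, adjusted p = 0.0435). These ranges overlapped, with replicate 1 lowest on day 7, and the call was lost without day 4 replicate 1 or 2 or day 7 replicate 1 or 2 (adjusted p up to 0.178) and with a replicate block (adjusted p = 0.0521). Lmnb1 was not called on patterned gelatin (log2 fold change -0.42, SE 0.15, adjusted p = 0.0523) but was with DESeq2 (-0.43, adjusted p = 0.0306) and with RLE size factors (-0.43, adjusted p = 0.0491). On unpatterned gelatin it was not called either (log2 fold change -0.46, SE 0.15, adjusted p = 0.106), but was with DESeq2 (-0.47, adjusted p = 0.0460) and in a fit of those 6 libraries alone (-0.47, adjusted p = 0.0478). The remaining members were not called. On patterned gelatin their log2 fold changes were 0.18 for Nes, 0.10 for Lmna and -0.01 for Plec. On unpatterned gelatin Des, Sync, Nes, Lmna and Plec ran from -0.19 (Plec) to 0.21 (Des). On plastic Des was at 0.08, Nes at -0.04 and Sync at 0.03, and Sync was called with limma on log2(TPM + 1) (0.25, adjusted p = 0.0435). On that scale Plec, Lmna and Lmnb1 on plastic lost their calls (adjusted p = 0.350, 0.419 and 0.373).

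The substrate was addressed in C2C12 cells by setting patterned gelatin against unpatterned gelatin and against plastic within a day. Synm was the member that was higher on patterned gelatin in 3 of these 4 comparisons, and no member was lower. On day 4, 0 of 8 members were called against unpatterned gelatin (0.00674% of all genes, which is 1 gene; 1281 genes had an unadjusted p under 0.05) and 1 of 8 was higher than on plastic (2.1% of all genes were called higher and 1.46% lower, 3.55% in all). On day 7, 1 of 8 was higher than on unpatterned gelatin (0.397% of all genes were called higher and 0.148% lower, 0.546% in all) and 4 of 8 were higher than on plastic (12.9% of all genes were called higher and 10.9% lower, 23.8% in all). The patterned libraries are shared between the comparisons of a day.

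Synm had 16.0, 18.7 and 13.6 CPM on day 7 on patterned gelatin, against 8.90, 9.50 and 8.23 CPM on unpatterned gelatin (log2 fold change 0.89, SE 0.14, adjusted p = 0.00442). It had 9.93, 9.68 and 7.44 CPM on plastic (log2 fold change 0.87, SE 0.14, adjusted p = 0.00101 for patterned gelatin over plastic). All 3 patterned libraries lay above all 6 others of that day, and leaving out single libraries did not change either call. On day 4 Synm had 9.92, 11.2 and 11.4 CPM on patterned gelatin, against 6.81, 7.78 and 6.46 CPM on unpatterned gelatin (log2 fold change 0.62, SE 0.14, adjusted p = 0.103). It had 4.78, 4.92 and 6.34 CPM on plastic (log2 fold change 1.00, SE 0.14, adjusted p = 0.000763 for patterned gelatin over plastic). The 3 substrates thus stood in the order patterned gelatin, unpatterned gelatin and plastic on day 4 with no overlap between neighbours, whereas on day 7 unpatterned gelatin and plastic overlapped (log2 fold change -0.02, SE 0.14, adjusted p = 0.960 for unpatterned gelatin over plastic). The day 4 difference from unpatterned gelatin passed the threshold with DESeq2 (adjusted p = 0.0132) and in a fit of those 6 libraries alone (adjusted p = 0.0381). Fitted on their own 6 libraries, the day 7 differences did not pass against unpatterned gelatin (0.89, adjusted p = 0.398) or plastic (0.85, adjusted p = 0.145). The difference between day 7 and day 4 in the effect of the pattern against unpatterned gelatin was 0.26 for Synm (SE 0.19, adjusted p = 0.688) and ran from 0.04 (Lmnb1) to 0.32 (Des) over the members. In all, 0 of 8 members, like 0% of all genes, passed that test (1064 genes had an unadjusted p under 0.05).

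Des, Lmna and Plec were called against plastic on day 7, each close to the threshold. Des had 4010.1, 4208 and 6240.2 CPM on patterned gelatin, against 3550.0, 3192 and 4040.5 CPM on plastic (log2 fold change 0.45, SE 0.16, adjusted p = 0.0478). The groups overlapped, and without patterned replicate 3, the highest library, the value was 0.19, adjusted p = 0.356. Lmna had 724, 767 and 1032 CPM on patterned gelatin, against 650.4, 653 and 728 CPM on plastic (log2 fold change 0.34, SE 0.12, adjusted p = 0.0476). Here too patterned replicate 3 stood highest, and without it the value was 0.14, adjusted p = 0.356. For Des and for Lmna, leaving out any 1 of the 3 plastic libraries also ended the call. Plec had 2796, 2987 and 2749.7 CPM on patterned gelatin, against 1512, 2669.8 and 1990.1 CPM on plastic (log2 fold change 0.49, SE 0.17, adjusted p = 0.0459). All patterned libraries lay above all plastic ones, yet 5 of the 6 libraries, all but plastic replicate 2, ended the call when left out, most of all plastic replicate 1 (0.30, adjusted p = 0.214). Against unpatterned gelatin Plec on day 7 had 1729, 1919 and 2494 CPM on unpatterned gelatin, below all 3 patterned libraries, with no call (log2 fold change 0.50, SE 0.17, adjusted p = 0.152). Des and Lmna against unpatterned gelatin on day 7 were at 0.28 and 0.12 with no call. On day 4 none of these genes was called. Against unpatterned gelatin Des was at -0.04, Lmna at -0.09 and Plec at 0.31. Against plastic Des was at 0.00, Lmna at -0.13 and Plec at -0.11.

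For the remaining members edgeR called no difference between patterned gelatin and the other surfaces. Its standard errors rest on a spread shared by all C2C12 groups. The day 7 libraries on patterned gelatin correlated less with their own group than other C2C12 libraries did, so those errors may be too small for them. Sync, Vim, Nes and Lmnb1 differed between patterned gelatin and the other surfaces by -0.14 to 0.24 on the log2 scale over the 4 comparisons, with SE of 0.07 to 0.15. Of these, Nes was called on day 7 against plastic once patterned replicate 1 was left out (0.31, adjusted p = 0.0407), and with all libraries it was 0.24, SE 0.10, adjusted p = 0.0932. Vim was called higher on day 7 against plastic with limma on log2(TPM + 1), at 0.37 (adjusted p = 0.0371), outside that range. Unpatterned gelatin against plastic gave no call for any of the 8 genes on day 4 (4.02% of all genes were called higher and 3.87% lower, 7.89% in all; adjusted p of the members 0.111 to 0.952) or day 7 (2.49% of all genes were called higher and 0.977% lower, 3.46% in all; adjusted p of the members 0.290 to 0.991), where 3429 and 2883 genes had an unadjusted p under 0.05. The members ran from -0.43 (Plec) to 0.37 (Synm) on day 4 and from -0.03 (Lmnb1) to 0.21 (Lmna) on day 7. Fitted on those 6 libraries alone, Plec was lower on unpatterned gelatin than on plastic on day 4 (-0.42, adjusted p = 0.00431).

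**Figure D3:**
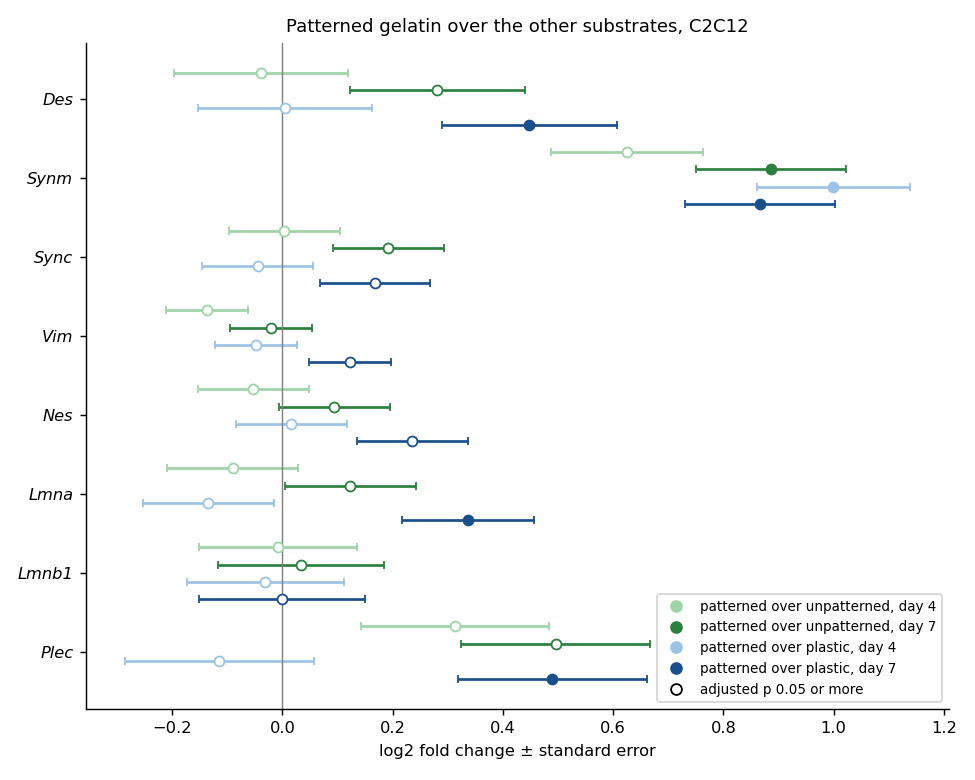
Difference of the 8 genes between patterned gelatin and the other surfaces in C2C12 cells. Points are log2 fold changes from edgeR with standard errors, for patterned over unpatterned gelatin and patterned gelatin over plastic on days 4 and 7 (n = 3 libraries a group), and open points have an adjusted p of 0.05 or more. Synm lies at 0.62 to 1.00, apart from the other members, whose points run from -0.14 to 0.50.

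Primary cells were set against C2C12 cells on day 0 and, on patterned gelatin, on days 4 and 7. Both lamin genes and Nes were lower in primary cells at every day. Of the 8 genes, 1 was higher and 4 were lower on day 0 (29.6% of all genes were called higher and 27.9% lower, 57.5% in all), 4 were lower on day 4 (25.7% of all genes were called higher and 25% lower, 50.6% in all) and 5 were lower on day 7 (25% of all genes were called higher and 26.4% lower, 51.5% in all). The median log2 fold change of the 8 genes was -0.43, -0.29 and -0.52 on these days, against -0.01, -0.01 and 0.00 over all genes. The fibroblast list (which holds genes of the extracellular matrix) was higher in C2C12 libraries on all days, as given above. On day 0 the lists of myoblasts and of pericytes were higher in primary libraries. The list of dividing cells was lower in primary libraries on all 3 days. On patterned gelatin it summed to 27.8 to 63.3 TPM in primary and 91.5 to 96.2 TPM in C2C12 libraries on day 4. On day 7 it summed to 20.96 to 27.3 TPM in primary and 52.8 to 72.2 TPM in C2C12 libraries. The part of these lists in the differences between the cell types was not tested.

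The lamins differed most steadily. Lmnb1 had 55.4, 55.0 and 52.9 CPM in primary day 0 libraries, against 131, 132 and 126 CPM in C2C12 day 0 libraries (log2 fold change -1.25, SE 0.15, adjusted p = 1.45e-07). On day 4 its log2 fold change was -1.13, SE 0.16, adjusted p = 2.04e-06. On day 7 it had 7.00, 5.64 and 6.21 CPM in primary libraries, against 12.97, 14.1 and 12.3 CPM in C2C12 libraries (log2 fold change -1.13, SE 0.16, adjusted p = 3.20e-06). Lmna had 526, 593 and 593 CPM in primary day 0 libraries, against 1031, 1205 and 1154 CPM in C2C12 day 0 libraries (log2 fold change -0.98, SE 0.21, adjusted p = 0.000351). On day 4 the log2 fold change of Lmna was -0.83, SE 0.21, adjusted p = 0.00227. On day 7 Lmna had 484, 398 and 240.4 CPM in primary libraries, against 724, 767 and 1032 CPM in C2C12 libraries (log2 fold change -1.24, SE 0.21, adjusted p = 3.46e-05). Every primary library was below every C2C12 library of its day for both lamins, and no library left out ended a call for either.

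Nes had 937, 1084 and 1075 CPM in primary day 0 libraries, against 1343, 1461 and 1445 CPM in C2C12 day 0 libraries (log2 fold change -0.45, SE 0.16, adjusted p = 0.0206). On day 4 its log2 fold change was -0.45, SE 0.16, adjusted p = 0.0236. Those calls were lost without any 1 of 3 libraries each, on day 0 without C2C12 replicate 2 or 3 or primary replicate 1 (adjusted p up to 0.0755) and on day 4 without C2C12 replicate 1 or 3 or primary replicate 3 (adjusted p up to 0.0999). On day 7 Nes had 1414, 1169 and 677 CPM in primary libraries, against 2097, 2157 and 2657 CPM in C2C12 libraries (log2 fold change -1.15, SE 0.17, adjusted p = 2.90e-06), and the groups lay well apart. Sync had 144, 157 and 132 CPM in primary day 7 libraries, against 197, 204.7 and 251 CPM in C2C12 libraries (log2 fold change -0.66, SE 0.10, adjusted p = 9.53e-06). The day 4 value of Sync was -0.33, SE 0.10, adjusted p = 0.0108, a call lost without primary day 4 replicate 1 (adjusted p = 0.0742), while on day 0 it was 0.13, SE 0.10, adjusted p = 0.290.

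Plec was lower in primary than in C2C12 cells on day 0 and not called after it. It had 1230.4, 1493 and 1933 CPM in primary day 0 libraries, against 2265, 2653 and 2346 CPM in C2C12 day 0 libraries (log2 fold change -0.64, SE 0.19, adjusted p = 0.00563), and its log2 fold changes were 0.13 on day 4 and -0.09 on day 7. Des had 1270.1, 1386 and 1503 CPM in primary day 0 libraries, against 898, 1013 and 1215 CPM in C2C12 day 0 libraries (log2 fold change 0.42, SE 0.16, adjusted p = 0.0275), and on day 7 4346, 3812 and 3513 CPM, against 4010.1, 4208 and 6240.2 CPM (log2 fold change -0.38, SE 0.16, adjusted p = 0.0491), while on day 4 it was not called (0.25, SE 0.16, adjusted p = 0.186). Both Des calls were near the threshold: without primary replicate 3 on all days they were 0.36, adjusted p = 0.0628 on day 0 and -0.28, adjusted p = 0.157 on day 7. On day 7 the call was also lost without C2C12 replicate 3 (-0.13, adjusted p = 0.493), without primary replicate 1, 2 or 3, and with a replicate block (-0.36, adjusted p = 0.0531). On day 0 it was lost without C2C12 replicate 1 or 2 or primary replicate 2 or 3 (adjusted p up to 0.137). Synm on day 4 showed how much 1 replicate could decide: with all libraries its log2 fold change was -0.05, SE 0.29, adjusted p = 0.895, and without primary replicate 3 on all days it was -0.80, adjusted p = 0.000774. On day 7 Synm was 0.55, SE 0.29, adjusted p = 0.116, and without primary replicate 2 it was called (0.77, adjusted p = 0.0481). Vim on day 4 was at -0.26, SE 0.11, adjusted p = 0.0510 with all libraries, and was called without primary replicate 3 on all days (-0.31, adjusted p = 0.0223) and with DESeq2 (-0.24, adjusted p = 0.0390). On day 7 Vim was at 0.07, SE 0.11, adjusted p = 0.591, and with limma on log2(TPM + 1) it was lower in primary cells (-0.45, adjusted p = 0.00944). Neither Synm (-0.40, SE 0.37, adjusted p = 0.371) nor Vim (-0.19, SE 0.11, adjusted p = 0.136) was called on day 0.

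**Figure D4:**
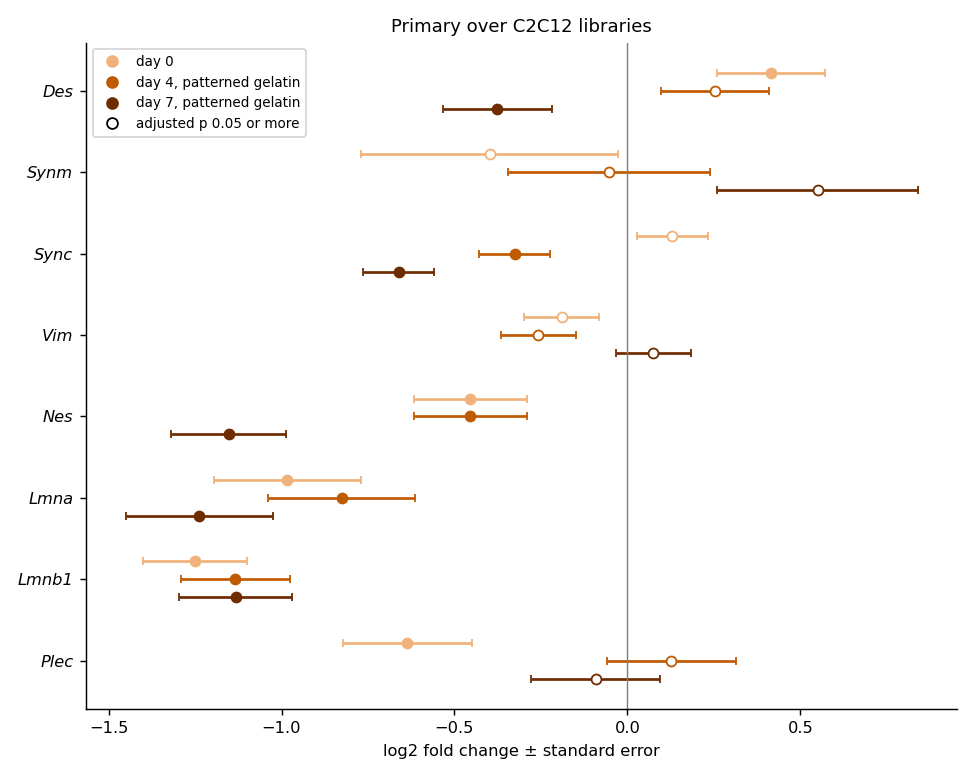
Difference of the 8 genes between primary and C2C12 cells on days 0, 4 and 7. Points are log2 fold changes from edgeR with standard errors (n = 3 libraries a group; days 4 and 7 on patterned gelatin), and open points have an adjusted p of 0.05 or more. Lmna and Lmnb1 lie between -0.83 and -1.25 on all days and Nes at -0.45, -0.45 and -1.15.

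The tables give an estimate per transcript, which divides the reads that transcripts share by a model, so shares of transcripts are less certain than sums over a gene. Plec has 22 transcripts in the tables, 11 with and 9 without a 15-base exon at chr15:76194559-76194573 (mm10, minus strand), in the coding part for the actin-binding domain; the other 2 do not span this place. The exon lies between a 62-base exon at chr15:76194751-76194812 and a 90-base exon at chr15:76194341-76194430. Both forms are shown as they join the 24 bases on either side, since the share of transcripts with the exon set day 4 and day 7 apart from day 0 in every library, and capitals mark the 15 bases.
Plec with the 15-base exon: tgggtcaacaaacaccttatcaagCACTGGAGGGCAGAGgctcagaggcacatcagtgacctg
Plec without the 15-base exon: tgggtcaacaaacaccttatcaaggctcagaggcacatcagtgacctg

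The exon was rare on day 0 and common in myotubes of both cell types. Shares were taken of the summed TPM of the Plec transcripts that span its place. Short transcripts such as Plec-212 are among them and weigh more in TPM than in counts. Transcripts with it made up 36.0%, 37.8% and 44.2% of that TPM in primary day 4 libraries, against 16.4%, 16.3% and 14.6% on day 0. In C2C12 libraries they made up 38.3%, 38.3% and 38.7% on day 4 on patterned gelatin and 34.2%, 36.4% and 33.9% on plastic, against 11.5%, 13.5% and 9.80% on day 0. No myotube library overlapped with a day 0 library. Primary cells had a further step, with 51.9%, 49.1% and 47.5% on day 7, above all day 4 libraries, whereas C2C12 libraries on patterned gelatin had 40.6%, 43.3% and 35.6% on day 7. With 3 libraries against 3, the exact two-sided permutation test cannot go below p = 0.1, which each of these non-overlapping pairs gave (adjusted p = 0.157 over 11 pairs). Between patterned and unpatterned gelatin the share of the exon overlapped on both days, and between patterned gelatin and plastic on day 7, whereas on day 4 patterned gelatin lay above plastic (exact permutation p = 0.1).

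Within pairs of full-length transcripts that share a first exon the contrast was sharper. Shorter transcripts with the 15 bases, Plec-212 and Plec-222, begin at the same exons and lie outside these pairs. The sharper contrast thus holds for the full-length pairs alone. Plec-202 holds the 15-base exon and Plec-218 does not, and both begin at the exon chr15:76199549-76199835. Plec-202 took 84.4% ± 13.4 of the pair's TPM in primary day 4 libraries, 97.03% ± 1.90 on day 7 and 0.0854% ± 0.105 on day 0. In C2C12 libraries it took 79.2% ± 6.77 on day 4 and 87.6% ± 4.90 on day 7 on patterned gelatin, against 0.0577% ± 0.0992 on day 0 (SD, n = 3 each). On day 0 Plec-202 was thus nearly missing, at no more than 0.0415 TPM in a C2C12 library, while Plec-218 had 24.1 to 30.4 TPM there. The pair from the exon that starts at 76205598, Plec-205 with and Plec-207 without the 15 bases, gave 56.5% ± 9.18 on day 4, 75.4% ± 2.84 on day 7 and 0.172% ± 0.233 on day 0 in primary cells. In C2C12 cells that pair gave 38.1% ± 4.10 on day 4 and 37.4% ± 25.8 on day 7 on patterned gelatin, against 0.0277% ± 0.0473 on day 0, with a wide spread on day 7.

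First exons of Plec also changed in use, by shares of TPM. Short transcripts weigh more in TPM than in counts. Plec-212, from the exon at 76199549, has 2158 bases, against 15018 for Plec-202. Transcripts from the exon that starts at 76205598 made up 12.7% ± 1.16 of Plec TPM in primary day 4 libraries and 39.0% ± 3.04 on day 0, and 13.9% ± 0.180 in C2C12 day 4 libraries on patterned gelatin and 36.1% ± 1.58 on day 0. Those from 76199549 made up 25.5% ± 2.82 in primary day 4 libraries and 9.04% ± 1.503 on day 0, and 30.1% ± 0.852 in C2C12 day 4 libraries on patterned gelatin and 14.2% ± 1.48 on day 0. Plec-206, from the exon at 76229358, made up 43.9% ± 3.30 in primary day 4 libraries and 26.2% ± 0.702 on day 0, and 37.0% ± 0.525 in C2C12 day 4 libraries on patterned gelatin and 16.3% ± 1.34 on day 0 (SD, n = 3 each). Plec-201, from the exon at 76195424, made up 1.60% ± 0.552 in primary day 4 libraries and 7.24% ± 0.868 on day 0. In C2C12 libraries it made up 3.62% ± 0.264 on day 4 on patterned gelatin and 15.2% ± 2.19 on day 0. The shares of the starts at 76205598 and 76195424 thus fell in both cell types. Those at 76199549 and 76229358 rose, and the days did not overlap for any of these starts.

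**Figure D5:**
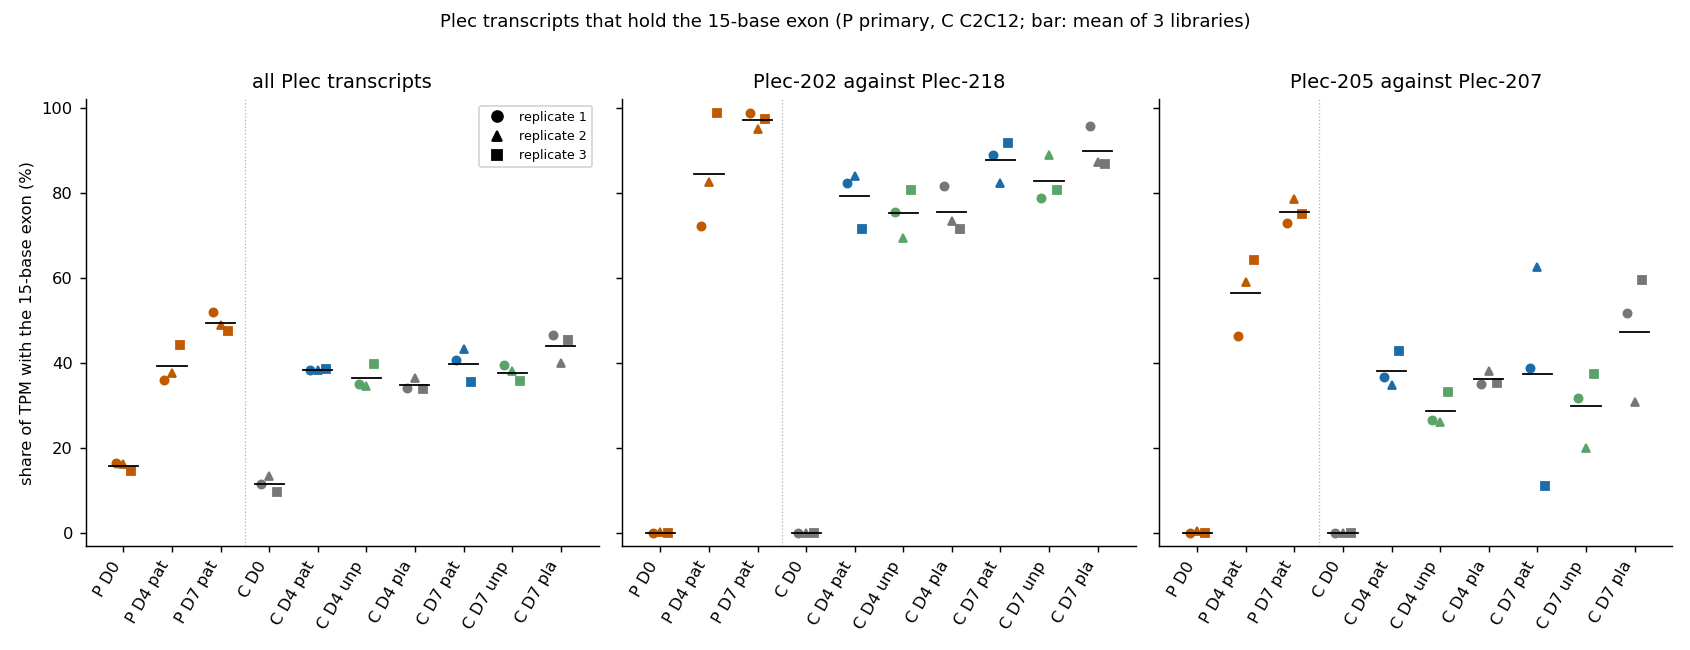
Share of TPM from transcripts that hold the 15-base exon, in percent, among all Plec transcripts that span its place (first panel). The other panels show 2 pairs of full-length transcripts that share a first exon, without the shorter transcripts from the same exons. The horizontal axis holds the 10 groups (P primary, C C2C12, D day, pat patterned gelatin, unp unpatterned gelatin, pla plastic), with 1 point a library, shaped by replicate, and a bar for the mean of 3. Day 0 libraries lie at 9.80% to 16.4% in the first panel and near 0 in the others, below every day 4 and day 7 library.

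Nes differed between the cell types in its transcripts. Nes-203 lacks 132 coding bases of Nes-201 (chr3:87976581-87976712, mm10, plus strand), which is 44 codons, and these bases are shown because the 2 transcripts differ there.
Nes, bases of Nes-201 that Nes-203 lacks: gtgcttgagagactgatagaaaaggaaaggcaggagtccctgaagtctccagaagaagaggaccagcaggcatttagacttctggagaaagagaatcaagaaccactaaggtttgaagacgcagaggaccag
In all 9 primary libraries Nes-203 was listed at 0, and Nes-201 made up 96.7% ± 0.247 of Nes TPM on day 0 (SD, n = 3). In C2C12 libraries Nes-203 took 59.5% ± 14.8 of the summed TPM of Nes-201 and Nes-203 on day 7 and 45.6% ± 4.33 on day 4 on patterned gelatin, and 52.7% ± 7.31 on day 0 (SD, n = 3 each). The share did not follow the day. C2C12 day 7 patterned replicate 3 stood highest, at 76.4%.

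Lmna makes lamin A (Lmna-201, 665 codons) and lamin C (Lmna-203, 574 codons) from different last exons. Lamin C took 61.2%, 60.4% and 62.1% of their summed TPM in C2C12 day 4 libraries on patterned gelatin, against 53.4%, 56.3% and 58.1% on day 0. On day 7 it took 67.3%, 65.6% and 81.0% on patterned gelatin, against 63.5%, 59.4% and 61.8% on plastic. The share was higher in each of these pairs with no overlap, and the exact permutation p was 0.1 for each, the smallest that 3 against 3 libraries allow (adjusted p = 0.22 over 11 pairs). On unpatterned gelatin on day 7 it took 62.8%, 71.6% and 64.5%, which overlapped with patterned gelatin (exact permutation p = 0.5). On day 4 both other surfaces overlapped with patterned gelatin (exact permutation p = 1.0 against unpatterned gelatin and 0.6 against plastic). In primary libraries it took 66.2%, 62.7% and 72.4% on day 4, against 60.02%, 58.5% and 67.4% on day 0, and these overlapped (exact permutation p = 0.3). Vim-203, a 535-base retained-intron transcript, made up 31.4% ± 7.80 of Vim TPM in C2C12 day 7 libraries on patterned gelatin and 7.74% ± 2.26 on day 4 (SD, n = 3 each). Because it is short, it weighs more in TPM than in counts: the coding transcripts of Vim summed to 902 TPM on day 7 and 1207 TPM on day 4 on patterned gelatin, in the direction of the counts, while the TPM of the whole gene averaged 1491 ± 202.4 on day 7 and 1333 ± 40.1 on day 4.

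Promoter windows of 6 of the 8 genes, 250 bases before to 50 after a RefSeq start (GRCm38.p6), were searched for CAGCTG, a form of the E-box that MyoD and myogenin bind, which reads the same on both strands. It was found in Des and Sync and in no window of Synm, Vim, Nes or Lmna. Among all 32851 windows 16.3% hold it. The windows of Des (chr1:75360042-75360341, plus strand) and Sync (chr4:129287371-129287670, plus strand) are shown with the match in capitals. Both genes rose on day 4 in both cell types, but so did Synm, which has no match. A match of letters is a description and not a binding site.
Des promoter: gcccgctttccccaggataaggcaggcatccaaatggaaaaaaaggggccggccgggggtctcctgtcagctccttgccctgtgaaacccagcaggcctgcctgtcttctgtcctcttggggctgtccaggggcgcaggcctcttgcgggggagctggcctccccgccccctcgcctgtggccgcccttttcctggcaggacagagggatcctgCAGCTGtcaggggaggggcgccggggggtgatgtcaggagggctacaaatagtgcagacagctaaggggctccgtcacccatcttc
Sync promoter: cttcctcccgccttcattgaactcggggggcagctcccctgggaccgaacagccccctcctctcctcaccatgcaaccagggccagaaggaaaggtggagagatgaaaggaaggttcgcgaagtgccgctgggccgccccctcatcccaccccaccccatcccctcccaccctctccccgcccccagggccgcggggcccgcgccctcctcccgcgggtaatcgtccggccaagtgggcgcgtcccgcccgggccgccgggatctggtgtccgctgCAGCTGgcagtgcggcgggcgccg

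The genes that work with these filaments were taken from 4 lists of 69 genes. Partners of desmin, the costamere and filament quality control formed the longest, with 27 genes, all of which were tested. On day 4 against day 0, 20 of these rose and 2 fell in primary cells (20.2% and 22.4% of all genes). In C2C12 cells 21 rose and 4 fell on patterned gelatin (30.9% and 29.3% of all genes) and 21 rose and 2 fell on plastic (30.2% and 27.7% of all genes). The median log2 fold changes were 1.74, 1.78 and 1.74 (members of the filament family 0.53, 0.43 and 0.48). Klhl41, which stabilises the thin filament protein nebulin, had 924 ± 71.3 CPM in C2C12 day 4 libraries on patterned gelatin, against 31.7 ± 3.37 CPM on day 0 (log2 fold change 4.88, SE 0.13, adjusted p = 3.97e-16). Capn3, the muscle calpain, had 189 ± 47.8 CPM in primary day 4 libraries, against 0.294 ± 0.0834 CPM on day 0 (log2 fold change 9.25, SE 0.41, adjusted p = 7.26e-06). Flnc, the filamin of the Z-disc, had 2031 ± 334 CPM in primary day 4 libraries, against 323 ± 60.1 CPM on day 0 (log2 fold change 2.60, SE 0.19, adjusted p = 3.23e-05). On patterned gelatin against unpatterned gelatin on day 7, 2 of the 27 were higher and none was lower (0.397% and 0.148% of all genes). These were Cmya5, the gene of myospryn, a binding partner of desmin, with 22.6 ± 6.08 CPM on patterned and 11.7 ± 0.920 CPM on unpatterned gelatin (log2 fold change 0.98, SE 0.20, adjusted p = 0.0351), and Nrap, which links actin to the tips of forming myofibrils, with 256 ± 47.7 CPM and 183 ± 5.70 CPM (log2 fold change 0.50, SE 0.11, adjusted p = 0.0461). Against plastic, 3 were higher and none was lower on day 4 (2.1% and 1.46% of all genes), and 10 were higher and 2 lower on day 7 (12.9% and 10.9% of all genes).

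The 23 partners of the lamina and the nuclear envelope were mixed, with 4 higher and 5 lower in primary cells on day 4 than on day 0, a share near that of all genes (20.2% and 22.4%). In C2C12 cells 5 were higher and 13 lower on patterned gelatin (30.9% and 29.3% of all genes) and 3 were higher and 11 lower on plastic (30.2% and 27.7% of all genes). Their median log2 fold changes were -0.16, -0.32 and -0.19. The giant nesprins moved in opposite directions. Syne1, the gene of nesprin-1, which binds muscle nuclei to the cytoskeleton, had 162 ± 4.08 CPM in C2C12 day 4 libraries on patterned gelatin, against 36.4 ± 1.41 CPM on day 0 (log2 fold change 2.17, SE 0.06, adjusted p = 8.03e-16). Syne2, the gene of nesprin-2, had 9.10 ± 2.83 CPM in primary day 4 libraries, against 40.4 ± 5.71 CPM on day 0 (log2 fold change -2.20, SE 0.26, adjusted p = 0.000278), and its log2 fold change in C2C12 cells on patterned gelatin was -1.89. Tmpo, the gene of the lamina-associated polypeptide LAP2, fell like Lmnb1, with 155 ± 3.22 CPM in C2C12 day 4 libraries on patterned gelatin, against 522 ± 7.44 CPM on day 0 (log2 fold change -1.73, SE 0.08, adjusted p = 5.31e-13).

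Of 13 other cytoplasmic filament genes, 8 passed the filter on low counts in C2C12 libraries and 5 in primary libraries. On day 4 against day 0, 3 rose and none fell in primary cells (20.2% and 22.4% of all genes), and 3 rose and 4 fell in C2C12 cells both on patterned gelatin (30.9% and 29.3%) and on plastic (30.2% and 27.7%). The median log2 fold changes of those tested were 2.21 in primary cells, -0.50 in C2C12 cells on patterned gelatin and -0.90 on plastic. Nefl, a neurofilament gene, had 2.34 ± 0.390 CPM in C2C12 day 4 libraries on patterned gelatin, against 114 ± 3.73 CPM on day 0 (log2 fold change -5.59, SE 0.15, adjusted p = 2.22e-16). Of 6 plakins and linkers related to plectin, 4 were tested in each of the 2 cell types. On day 4 against day 0, 3 rose and none fell in primary cells, 2 rose and 1 fell in C2C12 cells on patterned gelatin and 3 rose and none fell on plastic, beside the same shares of all genes. Their median log2 fold changes were 1.30, 0.64 and 1.11. Macf1 and Dst, which join microtubules to other filaments, rose in primary cells on day 4 (log2 fold changes 0.91 and 1.07) and in C2C12 cells on patterned gelatin (1.36 and 0.85).

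For each member the genes with the most similar pattern were taken by Pearson correlation of log2 group means over the 10 groups, among 9557 genes (9558 for Synm) with at least 10 CPM on average; the groups share cell type and day, and the values are a description. Nearest to Des were Tcap (0.992), Acta1 (0.992), Actn3 (0.991), Coq8a (0.991) and Tnnc1 (0.991). Nearest to Vim were Cadm1 (0.991), Tubb5 (0.990), Anxa1 (0.990), Gclc (0.989) and Itprid2 (0.987), and Vim and Des stood at -0.98 with each other. Nearest to Lmnb1 were Nasp (0.995), Tmpo (0.995), Melk (0.994), G6pdx (0.994) and Ercc6l (0.994). Nearest to Synm were Oplah (0.971), Ckmt2 (0.968), Pdpr (0.968), Bap1 (0.968) and Mfn1 (0.964), and nearest to Sync were Tmem158 (0.990), Mid1 (0.989), Padi2 (0.988), Wdr13 (0.986) and Slc4a3 (0.984). Lmna was nearest to Ecm1 (0.987), Nes to Scx (0.984) and Plec to Sppl2b (0.915), the last being the lowest nearest value among the 8 members.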

How the data were processed

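RNA of 30 libraries was quantified by the authors with Kallisto against mm10 (the sources used here do not give its version or transcript set); the deposited tables give an estimated count and TPM for each of 88198 transcripts. Transcripts were summed to genes with GENCODE M21 on the same assembly; 2167 had no entry there (0.723% to 0.893% of counts) and were left out. Summed counts were rounded and tested with edgeR 4.0.16 (TMM, filterByExpr, quasi-likelihood, adjusted p under 0.05) in 3 fits: 21 C2C12 libraries (14844 genes), 9 primary libraries (14352) and all 30 (15447). All 8 genes passed the filter in each. Alternatives were DESeq2 1.42.0, RLE factors, no filter, limma 3.58.1 on log2(TPM + 1), a replicate block, only the groups compared, and leaving out each library; leaving out primary replicate 3 on all days was added after seeing the data. The test recovered known changes in counts simulated with the spread of the C2C12 fit. These changes were larger than many reported here. Smaller changes and the wider spread of primary libraries were not simulated. Same-numbered primary libraries deviated together (correlations 0.243 to 0.843 over 9 pairs), C2C12 libraries did not (-0.355 to 0.424 over 63 pairs). Shares of transcripts were compared with exact permutation tests. All members were reported in every comparison, singly or within a range, and from each list up to 4 genes with the smallest adjusted p past the threshold; genes with a similar pattern were the 5 of highest correlation. Members and lists were chosen with earlier results of these data known.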

Additional observations from a re-analysis of the deposited data

Results flagged for a closer look

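For 2 genes the change between day 4 and day 0 differed between primary cells and C2C12 cells on patterned gelatin, by a test of the difference itself with edgeR over all 30 libraries. Plec rose by 1.01 on the log2 scale in the fit of the primary libraries and its value in the C2C12 fit was 0.29, and the difference was 0.76, SE 0.26, adjusted p = 0.0424. Sync rose by 0.54 in primary cells and by 1.04 in C2C12 cells, and the difference was -0.46, SE 0.15, adjusted p = 0.0276. Without primary replicate 3 on all days both calls held. Each was lost without some single libraries, as given above. The call of Plec was also lost with limma on log2(TPM + 1) (adjusted p = 0.0936) and when edgeR was fitted on the groups compared alone (adjusted p = 0.0731). The call of Sync was lost in edgeR without the filter on low counts (adjusted p = 0.0653).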

How the results depend on the processing

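Of 152 log2 fold changes of single members, 150 kept their call or lack of one with RLE factors, 148 with DESeq2 and 147 without the filter. With the replicate block 150 did, with limma on log2(TPM + 1) 138, and 136 when each comparison was fitted on its own groups. Of 1056 values with 1 library left out, 983 did, 66 lost and 7 gained the call, and 0 with a call reversed. Values with no call in either fit could change direction. This happened for 15 with limma, 3 with the block, 1 without the filter, 1 on own groups and 73 with 1 library left out. The block changed the call of Lmnb1 on plastic and of Des between the cell types on day 7 and no other. Among C2C12 libraries, whose numbers did not pair them, 7 of 21 correlated best with their own number. Among primary libraries 8 of 9 did, and the main fits took no account of this pairing. With limma on log2(TPM + 1), Vim turned round on patterned gelatin between day 7 and day 4 (0.15, adjusted p = 0.399) and between primary and C2C12 cells on day 7 (-0.45, adjusted p = 0.00944), where the short Vim-203 weighs on TPM as given above.

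Counts of members called moved as follows. Fitted on their own groups, they were 0 for day 7 against day 4 on patterned gelatin, 3 on plastic, 2 on unpatterned gelatin, 0 for patterned gelatin against plastic and 0 against unpatterned gelatin on day 7, 1 against unpatterned gelatin on day 4, 1 for unpatterned gelatin against plastic on day 4, and 1 for the difference between the cell types in the change up to day 4. With limma on TPM they were 2 for day 7 against day 4 on plastic (Synm and Sync, both higher, in place of 1 higher and 4 lower) and 0 on unpatterned gelatin. They were 2 for patterned gelatin against plastic on day 7 (Synm and Vim, in place of Synm, Des, Lmna and Plec) and 1 for the difference between the cell types. Without the filter they were 2 for patterned gelatin against plastic on day 7 and 1 for the difference between the cell types. With DESeq2 they were 2 for day 7 against day 4 on unpatterned gelatin and 1 for patterned against unpatterned gelatin on day 4. Without primary replicate 3 on all days they were 1 for day 7 against day 4 in primary cells and 1 for the difference between the cell types from day 4 to day 7, each time Synm.

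With 1 library left out, the counts for C2C12 day 4 against day 0 ran from 7 to 8 on patterned gelatin and 6 to 7 on plastic. For day 7 against day 4 they ran from 1 to 4 on patterned gelatin and 2 to 3 on plastic. Both ranges on plastic lay below the counts with all libraries. They ran from 1 to 4 for patterned gelatin against plastic on day 7. For primary against C2C12 cells they ran from 3 to 4, 3 to 5 and 4 to 5 on days 0, 4 and 7. For the differences between the cell types they ran from 0 to 2 up to day 4 and from 0 to 1 from day 4 to day 7. The order of group levels was read in TPM; in CPM, 5 of the 8 genes kept both their lowest and their highest group. Synm, with 24 to 772 counts a library, is the member whose precision depth limits most.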
